A study of Mus musculus with 2 samples.

Results

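Transforming growth factor-β (TGF-β) signalling was followed through 10 genes in single-cell RNA libraries of the mouse retina. The ligands were Tgfb1, Tgfb2 and Tgfb3, the receptors Tgfbr1, Tgfbr2 and Tgfbr3, the signal carriers Smad3 and Smad4, and the inhibitors Smad7 and Skil. The genes were chosen by name and role, with earlier results of these data known. All 10 were found among the 32285 genes of the files, of which 32235 could be given a symbol. One library came from control mice and 1 from light-damaged mice. Every animal carried floxed Tgfbr2 on both alleles. No Cre driver is named for them in the study's methods, which treat them as functionally wild type, and the genotype label reads WT. They were bred on a Balb-C/CD1 background, were homozygous for the leucine variant of the visual cycle enzyme RPE65, included both sexes and were 6 to 9 weeks old. All mice spent 18 h in complete darkness. Light-damaged mice then received white light of 5000 lux for 30 min and were killed after 6 h of recovery in dim light, whereas control mice received no damaging light. Retinae of 3 to 5 mice were pooled per library and dead cells were removed with magnetic beads. With 1 pool per condition there was no replicate, so no p-value is given and all 95% intervals cover counting error only, not the spread between mice.

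TGF-β ligands are secreted in a latent form and act, once released, on cells that carry both TGFBR2 and TGFBR1. TGFBR2 binds the ligand and activates the kinase TGFBR1, which phosphorylates SMAD2 and SMAD3. These join SMAD4 and enter the nucleus, where SKIL (also called SnoN) represses their targets, while SMAD7 blocks and removes the receptor complex. In the eye, TGF-β2 is known as a main ligand of the posterior segment, and microglia depend on TGF-β for their resting state.

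The control library held 30605284 unique molecular identifiers (UMIs) and the light-damaged library 54413601, of which 18.7% and 32.7% were unspliced. After filtering, 3669 control and 5593 light-damaged droplets were kept, and 7 barcodes occurred in both. Rods were divided by their share of unspliced UMIs into cytoplasm-rich rods (under 20%; 2355 control and 1766 light-damaged droplets) and nucleus-rich rods (30% or more; 699 and 3093 droplets). The remaining classes, named from marker genes, were RPE-like (retinal pigmented epithelium; 159 and 294 droplets), cone-like (210 and 104), muller-like glia (49 and 27), microglia-like (12 and 40) and bipolar-like (44 and 18). Rods between the 2 limits (125 and 57 droplets), an erythrocyte-like cluster (9 and 8, with 0 UMIs of all 10 genes) and unnamed droplets (7 and 186) were in none of these 7 classes, to which the statements below on classes refer. Light-damaged droplets were deeper: the median was 22134 against 2335 UMIs per droplet in muller-like glia and 12769 against 2500.5 in cone-like droplets. The pools also differed in sex-linked transcripts. In nucleus-rich rods Xist stood at 2228 CPM (counts per 1000000 UMIs of the class) in the control and 0.189 CPM in the light-damaged library, and 4 Y-linked genes together at 38.0 and 286 CPM. The effect of light damage and that of the sex of the pooled mice therefore cannot be told apart.

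Levels are spliced plus ambiguous UMIs of a class, summed over its droplets and expressed as CPM. A 3′ method counts molecules, so a gene is compared with itself across classes and not with other genes. Free RNA, read from barcodes with under 50 UMIs, was expected to give 5.03 UMIs or fewer of any of the 10 genes in any class, the largest being Smad4 in light-damaged RPE-like droplets (5.03 of 106 UMIs). Where a class held no UMI, the level that 3 UMIs would have had is given as the limit of detection, and a fold against 0 UMIs is computed against those 3 UMIs. These limits leave out the counting error of the other library, and the ends of the 95% intervals, drawn in the plots and given beside such folds, are wider.

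To show where these genes start, the 250 bases before the annotated start of a ligand and of a receptor are given from RefSeq (GRCm38.p6), together with those of a Smad. Tgfb2 and Smad3 were chosen as called members of muller-like glia, and Tgfbr1 as the receptor called in cytoplasm-rich rods and in cone-like droplets. Tgfb2 lies on the minus strand of chromosome 1, with its upstream bases at chr1:186705990-186706239, and Tgfbr1 on the plus strand of chromosome 4, at chr4:47352972-47353221. Smad3 lies on the minus strand of chromosome 9, at chr9:63757995-63758244. All 3 stretches end at the base before the first exon. Capitals mark CAGAC, the box to which SMAD3 and SMAD4 are known to bind, on either strand.
Tgfb2: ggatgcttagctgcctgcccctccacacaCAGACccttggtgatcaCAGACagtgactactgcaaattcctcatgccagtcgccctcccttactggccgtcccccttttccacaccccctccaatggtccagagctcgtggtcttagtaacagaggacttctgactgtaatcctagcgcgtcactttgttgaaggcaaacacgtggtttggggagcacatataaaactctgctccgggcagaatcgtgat
Tgfbr1: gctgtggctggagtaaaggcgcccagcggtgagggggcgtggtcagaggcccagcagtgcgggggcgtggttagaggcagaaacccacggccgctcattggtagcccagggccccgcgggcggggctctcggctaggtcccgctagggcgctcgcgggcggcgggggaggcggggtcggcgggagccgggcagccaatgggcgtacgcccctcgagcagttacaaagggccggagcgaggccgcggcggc
Smad3: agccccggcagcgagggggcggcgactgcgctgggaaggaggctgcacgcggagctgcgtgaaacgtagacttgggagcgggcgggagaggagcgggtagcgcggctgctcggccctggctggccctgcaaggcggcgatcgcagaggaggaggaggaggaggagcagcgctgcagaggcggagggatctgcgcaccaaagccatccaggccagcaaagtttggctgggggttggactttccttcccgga
The Tgfb2 stretch held CAGAC in 2 places at 53.6% G and C, and the Tgfbr1 stretch held none at 74.8% G and C but 2 GC boxes (GGGCGG). The Smad3 stretch likewise held no CAGAC and 2 GC boxes, at 69.2% G and C. Windows of 300 bases (250 before and 50 after the start) were given for 5 of the 10 genes. A second Tgfbr1 window, at chr4:47385966-47386265, held 1 CAGAC and 0 GC boxes at 52% G and C. CAGAC was present in 49.6% of all 32851 such windows and GGGCGG in 35.7%, so both are common. Neither the Smad palindrome GTCTAGAC (0.213% of windows) nor the AP-1 motif TGANTCA (7.81%) was found in a window of the 5 genes. A match describes the letters of the window and is no evidence of binding.

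Tgfb2 was read mainly in muller-like glia and bipolar-like droplets. In muller-like glia it stood at 554 CPM (95% interval 431 to 701; 69 UMIs) in the control and 1111 CPM (999 to 1234; 354 UMIs in 26 of 27 droplets) after light damage. In bipolar-like droplets the levels were 293 CPM (27 UMIs) and 863 CPM (171 UMIs). These intervals did not overlap within either class, and in the control library muller-like glia also lay clear above bipolar-like droplets, which after light damage they did not. RPE-like droplets followed with 37.4 CPM (24.5 to 54.9) and 42.7 CPM (34.8 to 51.9), clear of both kinds of rods in both libraries. Photoreceptors held next to none: both kinds of rods were at 2.65 CPM or less, and cone-like droplets had 0 UMIs in both libraries (limits of detection 4.05 and 2.22 CPM). Muller-like glia, 1.34% of control and 0.483% of light-damaged droplets, gave 53.9% and 49.9% of all Tgfb2 UMIs.

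Tgfb1, the ligand of many immune cells, was found in microglia-like droplets. They held 3 UMIs in the control (91.7 CPM, 18.9 to 268) and 94 UMIs after light damage (263 CPM, 213 to 322), spread over 23 of 40 droplets with at most 12 UMIs in 1. In no other named class did Tgfb1 pass 6.75 CPM, the level of control cone-like droplets, where it rested on 5 UMIs. After light damage 77.0% (68.6 to 84.2%) of all Tgfb1 UMIs came from microglia-like droplets, which were 0.715% of droplets. Of only 11 control UMIs, microglia-like droplets gave 27.3% (6.02 to 61.0%) and cone-like droplets 45.5% (16.7 to 76.6%).

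Tgfb3 was scarce, with 7 UMIs in the control and 32 in the light-damaged library, and no pair of neighbouring classes in the order of its levels had intervals clear of each other. The highest level was 8.03 CPM, from 1 UMI in control muller-like glia. After light damage 17 of the 32 UMIs lay in nucleus-rich rods (1.61 CPM, 0.936 to 2.57), each in a droplet of its own.

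**Figure D1:**
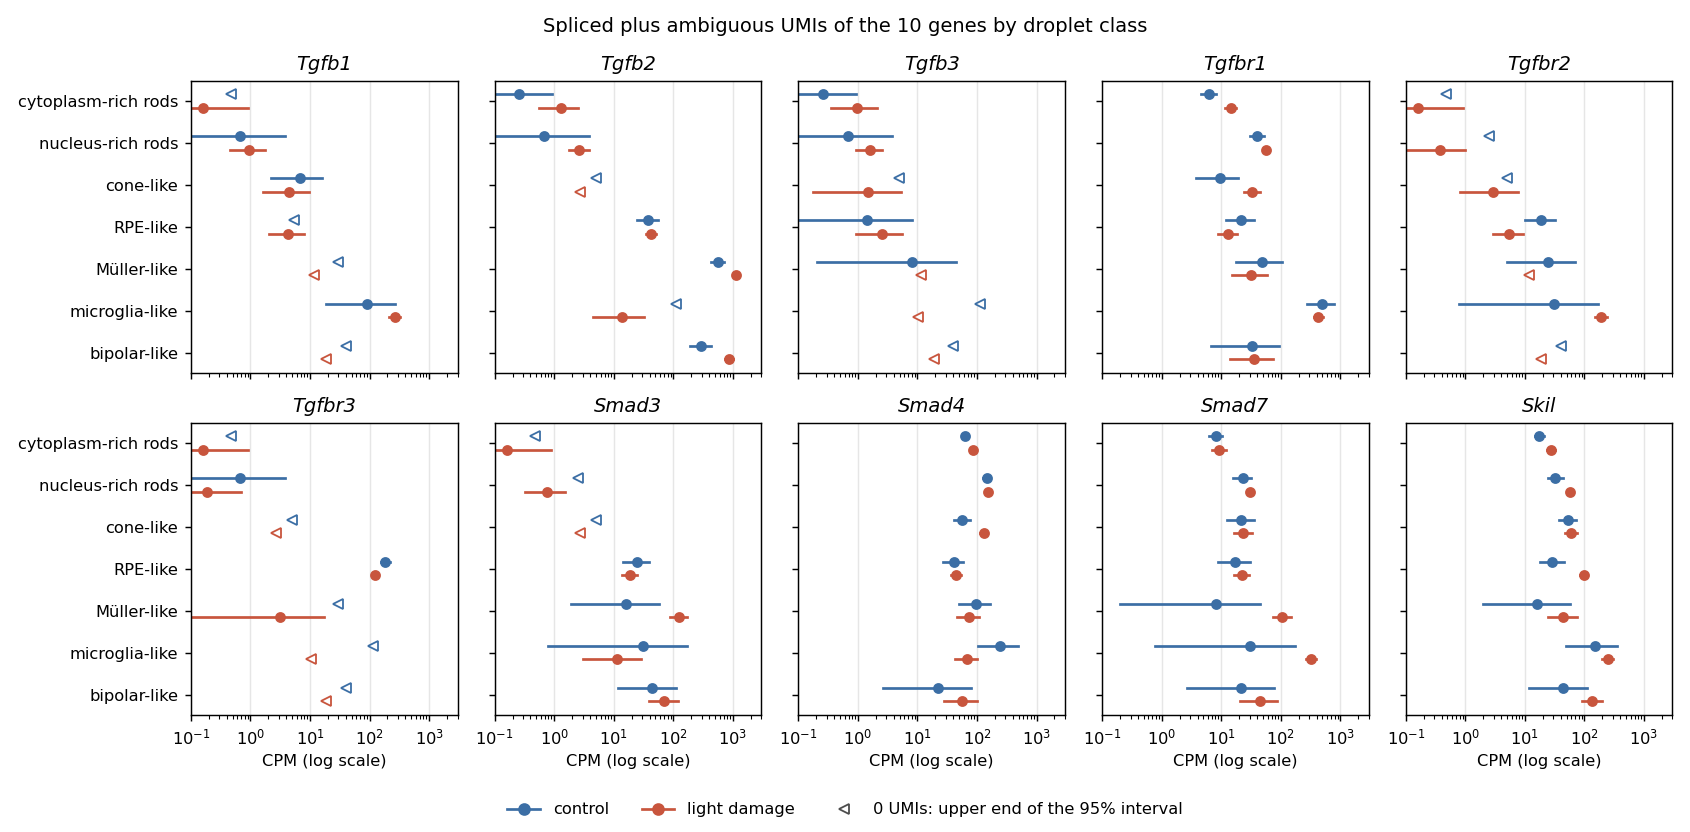
Level of each of the 10 genes in 7 droplet classes (rows) as CPM on a log axis, control in blue and light damage in red. Points are summed spliced plus ambiguous UMIs of 1 library, lines are 95% counting intervals and open triangles mark the upper end of the interval where no UMI was found. Tgfb1 stands highest in microglia-like droplets, Tgfb2 in muller-like and bipolar-like droplets and Tgfbr3 in RPE-like droplets, whereas Smad4 and Skil are found in all classes.

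Tgfbr1, the type I receptor kinase, was read in all classes and was highest in microglia-like droplets, at 489 CPM (279 to 794; 16 UMIs) in the control and 429 CPM (364 to 502; 153 UMIs) after light damage. All other classes lay between 6.19 and 57.2 CPM. Nucleus-rich rods held 40.7 and 57.2 CPM, cytoplasm-rich rods 6.19 and 14.5 CPM, cone-like droplets 9.45 and 33.3 CPM, RPE-like droplets 21.6 and 13.1 CPM and muller-like glia 48.2 and 31.4 CPM. In both libraries microglia-like droplets were the only class whose interval lay clear of the next lower one in this order.

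Tgfbr2, the type II receptor that binds the ligand, was found in fewer classes. After light damage microglia-like droplets held 68 UMIs in 18 of 40 droplets (191 CPM, 148 to 242), 74.7% of all Tgfbr2 UMIs of that library, and in the control 1 UMI (30.6 CPM, 0.774 to 170). RPE-like droplets held 13 UMIs in each library, which were 18.7 CPM (9.97 to 32.0) in the control, 72.2% of the 18 Tgfbr2 UMIs there, and 5.50 CPM (2.93 to 9.41) after light damage. Muller-like glia held 3 UMIs, all in 1 droplet, in the control and 0 after light damage (limit 9.42 CPM). Rods were at the limit of detection. Cytoplasm-rich rods held 0 and 1 UMI and nucleus-rich rods 0 and 4 UMIs, with limits of 0.387 and 2.03 CPM in the control. Unspliced Tgfbr2 UMIs did occur in nucleus-rich rods (3 and 18) and in cone-like droplets (4 and 23), against 0 and 4 spliced plus ambiguous UMIs in the latter.

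Tgfbr3, or betaglycan, a coreceptor that presents TGF-β2 to the other receptors, was found in RPE-like droplets, at 184 CPM (154 to 219) in the control and 125 CPM (111 to 140) after light damage. They gave 99.2% and 98.0% of its UMIs in the 2 libraries. No other named class passed 3.14 CPM, which was 1 UMI in light-damaged muller-like glia.

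The carriers of the signal differed in where they were read. Smad4, the common partner of all receptor-activated Smads, was present in every class, from 21.7 CPM (2 UMIs, at the 2.18 UMIs expected from free RNA) in control bipolar-like droplets to 244 CPM (8 UMIs) in control microglia-like droplets. Nucleus-rich rods held 144 and 154 CPM and cytoplasm-rich rods 61.9 and 86.5 CPM. Smad3, which carries the TGF-β signal, was next to absent in photoreceptors: cytoplasm-rich rods held 0 and 1 UMI, nucleus-rich rods 0 and 8 UMIs and cone-like droplets 0 in both libraries. It was read in bipolar-like (43.5 and 70.6 CPM), RPE-like (24.5 and 18.6 CPM), muller-like (16.1 and 122 CPM) and microglia-like droplets (30.6 and 11.2 CPM), which in the control library did not differ beyond their intervals. After light damage muller-like and bipolar-like droplets overlapped and lay clear of the RPE-like ones.

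Smad7, the inhibitor of the receptor complex, stood between 8.03 and 30.6 CPM in the control classes, none of which lay clear of its neighbour. After light damage microglia-like droplets lay clear above the rest, at 325 CPM (269 to 390). Skil, the repressor of Smad complexes, was likewise read in every class, from 16.1 to 153 CPM in the control and from 27.2 to 244 CPM after light damage.

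By the likeness of their profiles over the 14 groups (a class in 1 library) that held at least 20 droplets, all sharing the same 2 libraries, depths and free RNA, each gene with at least 100 UMIs was set beside all others. These groups included rods of intermediate unspliced share and left out control microglia-like and light-damaged bipolar-like droplets. Tgfb1 was most like Ctss (Pearson r = 0.992), a lysosomal protease that served as a microglial marker here, Tgfb2 most like Tanc1 (0.987), Tgfbr2 most like Arap1 (0.973), Tgfbr3 most like Fbn1 (0.999) and Bmp4 (0.997), and Smad7 most like Runx1 (0.957). Light-damaged microglia-like droplets were the only microglia-like group here, and the values of Tgfb1 and Tgfbr2 rest mainly on that group. Those of Tgfbr3 rest mainly on RPE-like droplets. The lowest first likeness was that of Skil with Nsa2 (0.881).

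Rods raised the question of whether photoreceptors themselves changed their TGF-β genes in light damage. A gene was called in a comparison when it had at least 10 UMIs over both libraries, its levels differed at least 1.5-fold and the interval of the ratio left out equality. In cytoplasm-rich rods 5 of the 10 genes had 10 UMIs and 2 were called, both higher after light damage, where 17.1% of all 10861 genes tested were called in either direction, 13.7% higher and 3.32% lower. Tgfbr1 went from 6.19 to 14.5 CPM (48 and 90 UMIs), a log2 ratio of 1.23 (0.70 to 1.76). Skil went from 17.5 to 27.2 CPM (136 and 169 UMIs), a log2 ratio of 0.63 (0.30 to 0.97). Smad4 stood at 61.9 and 86.5 CPM and Smad7 at 8.12 and 9.32 CPM, neither of which was called. The median gene lay at 0.17 in this comparison, and relative to it Tgfbr1 was at 1.05 and still called, while Skil was at 0.46 and no longer called.

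Rods of low unspliced share lay in 2 clusters that the libraries filled unequally. One was mostly control (1859 against 435 droplets) and the other mostly light-damaged (597 against 1352). Within the former Tgfbr1 stood at 4.40 CPM (20 UMIs) and 6.80 CPM (7 UMIs), and within the latter at 9.09 CPM (5.99 to 13.2) and 16.1 CPM (12.8 to 20.0). Skil stood at 16.7 and 19.4 CPM in the former and at 18.2 CPM (13.7 to 23.7) and 28.7 CPM (24.2 to 33.8) in the latter. The light-damaged level was the higher one in both clusters for both genes, but only the intervals of Skil in the second cluster were clear of each other. The interval of the ratio, on which a call rests, was not computed within these clusters, and overlap of level intervals does not decide it.

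In nucleus-rich rods 7 of the 10 genes had 10 UMIs and 1 was called, where 20.7% of 13340 genes tested were called in either direction, 11.2% higher and 9.51% lower. Skil went from 32.5 to 57.1 CPM (48 and 604 UMIs), a log2 ratio of 0.81 (0.39 to 1.27). Tgfbr1 stood at 40.7 and 57.2 CPM, a log2 ratio of 0.49 (0.11 to 0.90) that stayed under 1.5-fold, Smad4 at 144 and 154 CPM and Smad7 at 23.0 and 30.4 CPM. Unspliced UMIs, expressed as CPM of the unspliced UMIs of a class, called 2 genes where 15.4% of all genes tested were called. Skil went from 2.37 to 11.2 CPM (5 and 134 UMIs, log2 ratio 2.25) and Tgfb3 from 2.37 to 7.13 CPM (5 and 85 UMIs, log2 ratio 1.59).

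Skil stood at different levels in the clusters of nucleus-rich rods, which the libraries filled unequally. The largest control cluster of nucleus-rich rods (591 droplets) had Xist as its leading gene and held Skil at 30.2 CPM (59 UMIs). Light-damaged nucleus-rich rods fell mainly into a cluster of 1827 droplets at 44.8 CPM (39.5 to 50.5) and another of 1036 droplets, with Jun among its leading genes, at 69.9 CPM (62.6 to 77.7). In that last cluster Tgfbr1 stood at 79.7 CPM (72.0 to 88.1) against 38.9 CPM (34.0 to 44.3) in the larger one, Jun at 1835 CPM and Junb at 1152 CPM. The 1 cluster that held over 100 nucleus-rich droplets of each library gave no call. With 118 control and 1802 light-damaged droplets the log2 ratio of Skil was 0.20 (-0.70 to 1.28) and that of Tgfbr1 -0.44 (-1.22 to 0.45). This interval of Skil includes the ratio of the whole class, so the missing call shows no change in the ratio. The part of the makeup of the class in these ratios was not tested.

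Nucleus-rich rods held more of 4 of the genes than cytoplasm-rich rods of the same library. In the control all 4 genes tested were called higher, with log2 ratios from 0.89 for Skil and 1.22 for Smad4 up to 2.72 for Tgfbr1, where 63.2% of all genes tested were called in either direction and 52.2% higher. In the light-damaged library 4 of 7 tested were called, the same 4 genes, at 1.98, 1.71, 0.83 and 1.07 for Tgfbr1, Smad7, Smad4 and Skil, against 65.4% of all genes tested called in either direction and 56.2% higher. The median over all genes tested was 0.84 in the control and 0.92 in the light-damaged library, where Smad4 lay below it.

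**Figure D2:**
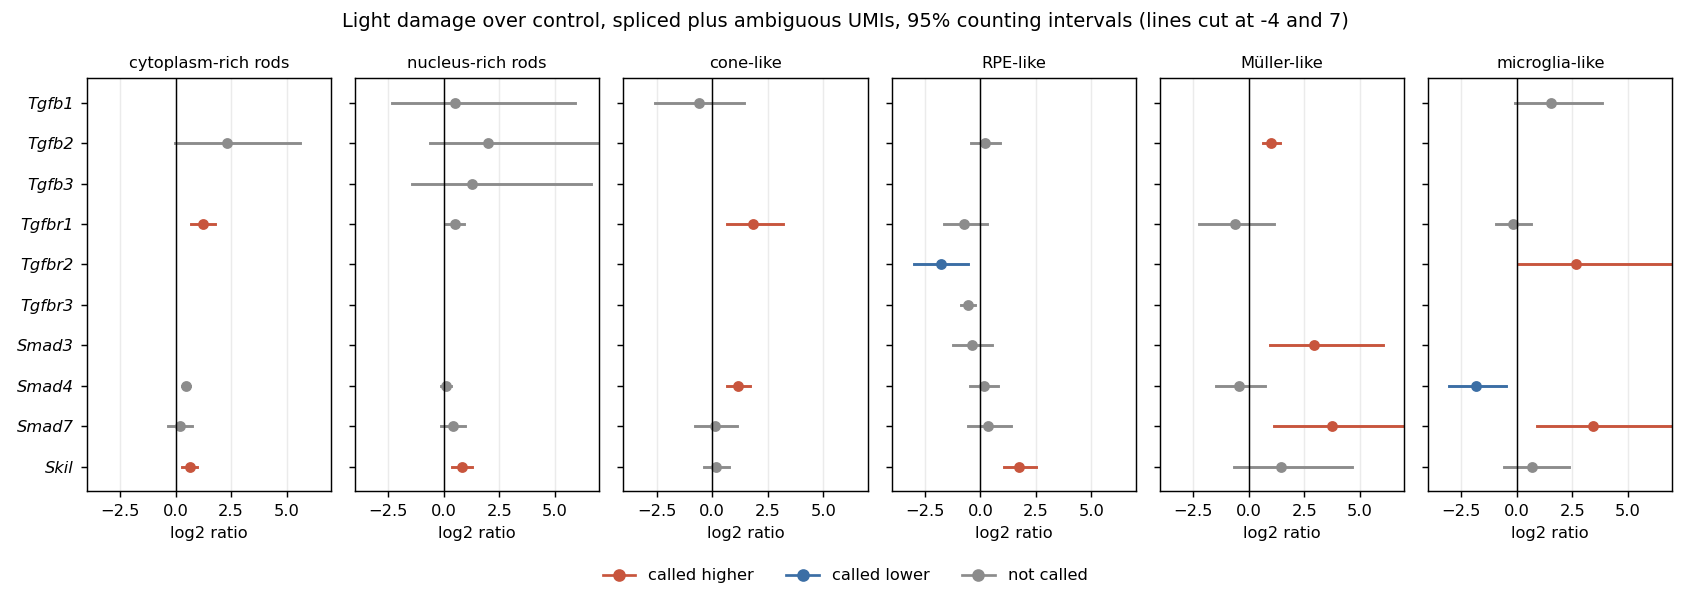
Log2 ratio of light damage over control for each gene in 6 droplet classes, with 95% counting intervals. Red marks genes called higher, blue genes called lower and grey genes that were not called. Genes with under 10 UMIs over both libraries, or with 0 UMIs in 1 library, have no point. Skil is red in both kinds of rods and in RPE-like droplets, and Tgfbr2 is blue in RPE-like and red in microglia-like droplets.

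RPE-like droplets, the epithelium that supports photoreceptors, were the class in which most members could be tested. Of 9 genes with 10 UMIs, 2 were called, where 22.0% of 10303 genes tested were called in either direction, 11.7% higher and 10.3% lower. Skil went from 28.8 to 96.5 CPM (20 and 228 UMIs), a log2 ratio of 1.74 (1.08 to 2.48). Tgfbr2 went from 18.7 to 5.50 CPM (13 UMIs each), a log2 ratio of -1.77 (-2.99 to -0.54). Of the 13 control UMIs of Tgfbr2, 6 lay in 1 droplet. Tgfbr3 was at a log2 ratio of -0.56 (-0.86 to -0.25), short of 1.5-fold, and Tgfb2 at 0.19, Tgfbr1 at -0.72, Smad3 at -0.40, Smad4 at 0.15 and Smad7 at 0.35 had intervals that included 0. Tgfb1 held 0 and 10 UMIs and was not called. The median gene lay at -0.11. Rod markers stood at 9519 and 4406 CPM in these droplets and the free RNA share at 8.76% and 5.23%, whose part in these ratios was not tested.

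RPE-like droplets consisted of 2 clusters. One held 159 control and 173 light-damaged droplets and the other 121 droplets, all light-damaged, with the metallothionein Mt1 among its leading genes. Skil stood at 40.3 CPM (29.9 to 53.2) in the light-damaged droplets of the former and at 158 CPM (136 to 183) in the latter. Within the shared cluster neither Skil (log2 ratio 0.49, -0.29 to 1.31) nor Tgfbr2 (-1.08, -2.38 to 0.20) was called. There Tgfb2 was higher after light damage, at 37.4 and 77.5 CPM (log2 ratio 1.05, 0.41 to 1.73), and Smad3 lower, at 24.5 and 9.68 CPM (-1.34, -2.54 to -0.19). The share of all genes called within this shared cluster was not computed. In the light-damaged cluster Tgfb2 stood at 4.45 CPM and Tgfbr2 at 1.78 CPM. Tgfbr3 stood at 184 CPM in the control droplets, 152 CPM in the light-damaged droplets of the shared cluster and 96.1 CPM in the light-damaged cluster.

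In cone-like droplets 5 genes had 10 UMIs and 2 were called, both higher after light damage, where 31.5% of 10432 genes tested were called in either direction, 23.6% higher and 7.89% lower. Tgfbr1 went from 9.45 to 33.3 CPM (7 and 45 UMIs), a log2 ratio of 1.82 (0.66 to 3.21), and Smad4 from 56.7 to 129 CPM (42 and 174 UMIs), a log2 ratio of 1.18 (0.69 to 1.71). Unspliced Smad4 was also called, from 33.5 to 107 CPM (log2 ratio 1.68), where 20.3% of all genes tested were called, and unspliced Tgfbr1 was not, at 100 and 140 CPM. Skil at 52.7 and 59.9 CPM and Smad7 at 21.6 and 23.7 CPM were not called. Unspliced UMIs were 24.4% of control and 35.5% of light-damaged cone-like UMIs, and this class was not split by that share as rods were. Rod markers took 92338 CPM of control and 48854 CPM of light-damaged cone-like droplets. The part of the unspliced share and of rod markers in these ratios was not tested.

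In muller-like glia 6 genes had 10 UMIs and 3 were called, all higher after light damage, where 32.0% of 7087 genes tested were called in either direction, 15.2% higher and 16.8% lower. Tgfb2 had a log2 ratio of 1.00 (lower end of the interval 0.63), with 1.27 in unspliced UMIs (46 and 273 UMIs). Smad3 went from 16.1 CPM (2 UMIs) to 122 CPM (39 UMIs in 19 of 27 droplets), a log2 ratio of 2.93 (0.98 to 6.03). Its unspliced UMIs were more numerous, 4 and 281, or 29.8 and 851 CPM of unspliced UMIs, a log2 ratio of 4.84, where 37.3% of all genes tested were called. Smad7 went from 8.03 CPM (1 UMI) to 107 CPM (34 UMIs in 14 droplets), a log2 ratio of 3.73 (1.16 to 9.08). The median gene lay at -0.58, relative to which Tgfb2 was at 1.58, Smad3 at 3.51 and Smad7 at 4.31.

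The 2 groups of muller-like droplets were of different clusters. All 49 control droplets lay in a cluster led by Glul and Apoe, and 26 of the 27 light-damaged droplets in one led by Cp, Akap12, Mt1 and Clu, so cluster and condition cannot be told apart here. With a mitochondrial limit of 5%, which admitted 99 light-damaged droplets to the class, Tgfb2 was at a log2 ratio of -0.06 (-0.43 to 0.34) and Smad3 lost its call. A Leiden resolution of 2 and the addition of unnamed droplets, with 104 and 82 light-damaged droplets, put Tgfb2 at 0.21 and 0.17, without a call. Smad7 was called in all 9 alternatives that gave it a value. The endothelial list stood at 1373 and 1940 CPM in these droplets with Pecam1 and Ly6c1 at 0, the astrocyte list at 0 and 374 CPM, the pericyte list at 361 and 75.4 CPM and rod markers at 22551 and 5554 CPM. The free RNA share was 20.1% and 6.34%, and their part in the result was not tested.

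In microglia-like droplets 6 genes had 10 UMIs and 3 were called, where 16.6% of 5806 genes tested were called in either direction, 7.51% higher and 9.13% lower. Tgfbr2 went from 1 to 68 UMIs, a log2 ratio of 2.64 (0.11 to 7.97), and Smad7 from 1 to 116 UMIs in 19 droplets, a log2 ratio of 3.41 (0.90 to 8.73). Smad4 was lower, at 244 and 67.3 CPM (8 and 24 UMIs), a log2 ratio of -1.86 (-3.06 to -0.50). Tgfb1 at a log2 ratio of 1.52 (-0.07 to 3.83), Tgfbr1 at -0.19 and Skil at 0.67 were not called, nor was any of the 7 members tested in unspliced UMIs, where 12.7% of all genes tested were called. The median gene lay at -0.52, relative to which Tgfb1 was at 2.04 and called and Smad4 at -1.34 and not called.

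The control side of this comparison was thin. The 12 control droplets held 32726 UMIs with an estimated free RNA share of 57.6%, against 6.60% after light damage, and rod markers took 62275 CPM of them against 5617 CPM of the light-damaged droplets. With free RNA subtracted the log2 ratios were 2.63 for Smad7, 1.86 for Tgfbr2, which was no longer called, 0.74 for Tgfb1 and -0.97 for Tgfbr1, which was then called lower. Of the 8 control Smad4 UMIs, 7 lay in 1 droplet with 54745 CPM of rod markers. Only 3 control droplets stayed under 20000 CPM of rod markers, with 0 Smad4 UMIs among 5709, and 33 light-damaged droplets did, at 63.1 CPM of Smad4. Among these droplets Tgfbr1 alone of the 10 genes was called. It was lower after light damage, at 1226 and 456 CPM (log2 ratio -1.43, -2.50 to -0.09), with 7 control UMIs. The share of all genes called among these droplets was not computed. In the 33 light-damaged droplets Tgfb1 stood at 261 CPM, Tgfbr2 at 201 CPM and Smad7 at 348 CPM.

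**Figure D3:**
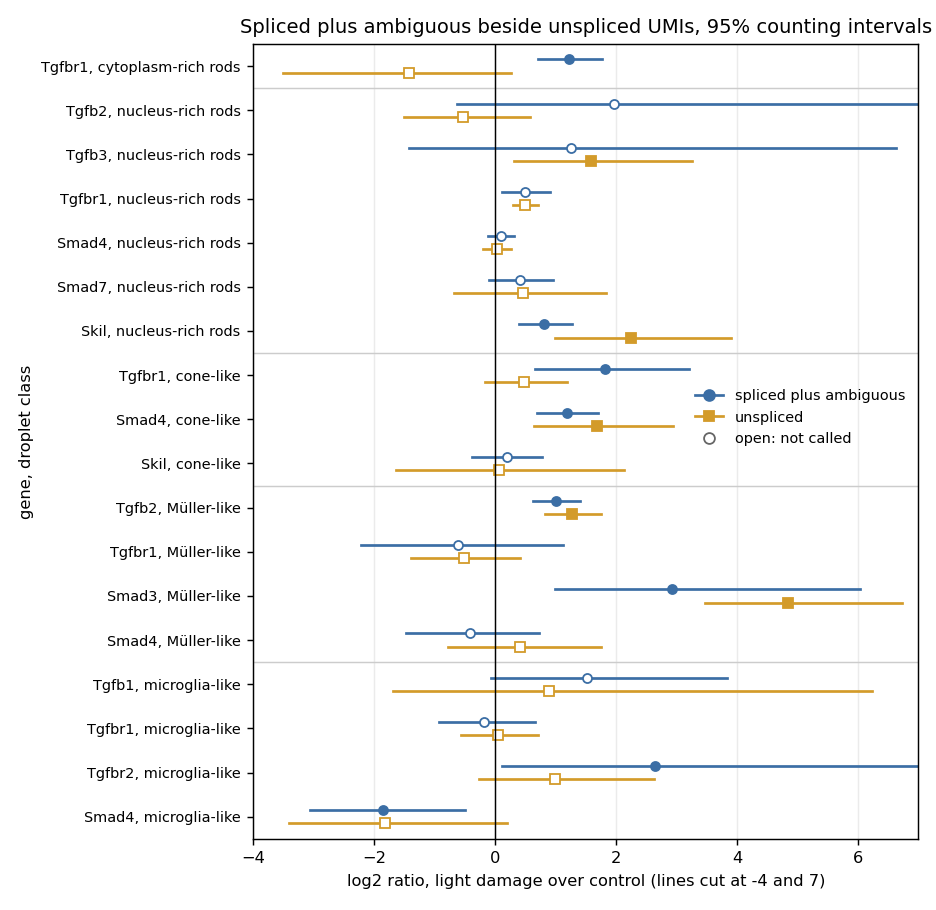
Log2 ratio of light damage over control for 18 pairs of gene and droplet class that had at least 10 UMIs of both kinds, spliced plus ambiguous UMIs as blue circles and unspliced UMIs as yellow squares, with 95% counting intervals. Filled symbols were called and open symbols were not. Skil in nucleus-rich rods, Smad4 in cone-like droplets and Tgfb2 and Smad3 in muller-like glia were called in both kinds of UMI.

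A further 70 genes of the pathway were taken from 5 lists: latency and activation of the ligand, related ligands and receptors, other Smads, Smad cofactors and turnover, and targets. After light damage 9 were higher and 0 lower of 29 tested in cytoplasm-rich rods, 8 and 1 of 41 in nucleus-rich rods, 14 and 8 of 47 in RPE-like, 16 and 3 of 33 in cone-like, 15 and 6 of 37 in muller-like and 4 and 0 of 25 in microglia-like droplets. In microglia-like droplets 4 of 25 stood beside 16.6% of all genes and in nucleus-rich rods 9 of 41 beside 20.7%, which is near the background. In the other classes 9 of 29 in cytoplasm-rich rods stood beside 17.1%, 22 of 47 in RPE-like droplets beside 22.0%, 19 of 33 in cone-like droplets beside 31.5% and 21 of 37 in muller-like glia beside 32.0%. In all, 46 of the 70 genes were called in at least 1 class. The share of all genes called in at least 1 class was not computed, so this count has no background beside it.

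The list of latency and activation holds integrins with an αv chain (Itgav) and the matrix protein thrombospondin (Thbs1), which release latent ligand. In muller-like glia 3 were higher and 1 lower of 6 tested, beside 15.2% and 16.8% of all genes. Itgb8 stood at 104 and 703 CPM (log2 ratio 2.75, 1.95 to 3.68) and its partner Itgav at 233 and 672 CPM (1.53). Furin, which cleaves the precursor, stood at 56.2 and 132 CPM (1.23) and Itgb5 at 120 and 15.7 CPM (-2.94). In RPE-like droplets 0 were higher and 3 lower of 9 tested, beside 11.7% and 10.3% of all genes. The 3 lower genes were the fibrillin Fbn1 (396 and 191 CPM, log2 ratio -1.05), Thbs1 (1665 and 1104 CPM, -0.59) and the latent-complex protein Ltbp3 (173 and 113 CPM, -0.61). In microglia-like droplets Furin held 1 and 135 UMIs (log2 ratio 3.63, 1.13 to 8.94). Cone-like droplets held 16 UMIs of Itgb6 in the control and 0 after light damage. Set against 3 UMIs this was 9.73-fold lower (interval up to a log2 ratio of -2.81).

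Of related ligands and receptors, the activin subunit Inhba was higher in muller-like glia, at 16.1 CPM (2 UMIs) and 584 CPM (186 UMIs), a log2 ratio of 5.18 (3.31 to 8.24). There Acvr1, a type I receptor, held 0 and 41 UMIs, 5.34-fold higher against 3 UMIs (interval from a log2 ratio of 2.05). Bmpr1b and Gdf11 were lower in that class. In RPE-like droplets 2 of 11 tested were higher, with Bmpr2 at 74.9 and 138 CPM, and 4 lower, beside 11.7% and 10.3% of all genes. The lower ones were Bmp4 (507 and 304 CPM, log2 ratio -0.74), Bmp6 (64.8 and 35.6 CPM), Gdf11 (63.4 and 30.9 CPM) and the activin receptor Acvr2b (40.3 and 14.4 CPM, -1.49). In rods Acvr2b went the other way, at 53.8 and 82.5 CPM in cytoplasm-rich (log2 ratio 0.62) and 82.0 and 140 CPM in nucleus-rich rods (0.77).

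Among the other Smads, Smad5, a carrier of the bone morphogenetic protein signal, was higher after light damage in cytoplasm-rich rods (19.7 and 47.1 CPM, log2 ratio 1.26, 0.97 to 1.55), nucleus-rich rods (47.4 and 107 CPM, 1.17) and cone-like droplets (25.7 and 65.9 CPM, 1.36). Smad2, the partner of Smad3, was called in cone-like droplets (29.7 and 59.2 CPM, 1.00) and in no other class. Smad1 held 0 and 36 UMIs in muller-like glia, 4.69-fold higher against 3 UMIs (interval from a log2 ratio of 1.86). In RPE-like droplets it stood at 8.64 and 24.1 CPM.

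Of the 16 cofactors, 6 of 14 tested were higher in RPE-like droplets (11.7% of all genes) and 8 of 13 in cone-like droplets (23.6% of all genes), with 0 lower in either. In muller-like glia 5 were higher and 1 lower of 13 (15.2% and 16.8% of all genes) and in nucleus-rich rods 2 and 1 of 14 (11.2% and 9.51%). In cytoplasm-rich rods 2 and 0 of 12 were called (13.7% and 3.32%) and in microglia-like droplets 1 and 0 of 10 (7.51% and 9.13%). The repressor Tgif1 went from 5.76 to 60.9 CPM in RPE-like droplets (log2 ratio 3.40, 2.02 to 5.30) and Rnf111, a ligase that degrades SKIL, from 5.76 to 27.5 CPM (2.26). Zeb2, a Smad-binding repressor, was higher in cone-like (5.40 and 59.9 CPM, log2 ratio 3.47), RPE-like (25.9 and 66.9 CPM) and microglia-like droplets (489 and 1068 CPM). The ligases Smurf1 and Smurf2 were higher in nucleus-rich rods (log2 ratio 1.18 for Smurf1, 66.4 and 102 CPM for Smurf2), and the repressor Tgif2 was lower there (8.13 and 1.42 CPM, log2 ratio -2.52). In muller-like glia Pmepa1, an inhibitor that TGF-β induces, was lower at 755 and 418 CPM (log2 ratio -0.85).

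The target list was led by Junb, an AP-1 gene that TGF-β and many stress signals induce. It was called higher in all 6 classes, from 11.6 to 162 CPM in cytoplasm-rich rods (log2 ratio 3.80, 3.49 to 4.13), 42.0 to 755 CPM in nucleus-rich rods (4.17), 4.32 to 269 CPM in RPE-like (5.96), 62.1 to 414 CPM in cone-like (2.74), 16.1 to 568 CPM in muller-like (5.14) and 428 to 967 CPM in microglia-like droplets (1.18). Other targets were called in some classes. The cell-cycle inhibitor Cdkn1a held 0 and 216 UMIs in muller-like glia, 28.1-fold higher against 3 UMIs (interval from a log2 ratio of 4.50). In RPE-like droplets Cdkn1a stood at 8.64 and 47.4 CPM. The collagen Col4a1 held 0 and 62 UMIs in RPE-like droplets, 6.07-fold higher against 3 UMIs (interval from 2.26), and 1.36 and 15.9 CPM in nucleus-rich rods. The matricellular genes Ccn1 and Ccn2 parted in muller-like glia, Ccn1 at 32.1 and 549 CPM (log2 ratio 4.10) and Ccn2 at 257 and 25.1 CPM (-3.35), and Id3 was lower there at 594 and 295 CPM (-1.01). In microglia-like droplets, with the same 12 control droplets, Id2 held 0 and 384 UMIs, 11.7-fold higher against 3 UMIs (interval from 3.25). These genes answer to several signals, and which of them acted was not tested.

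**Figure D4:**
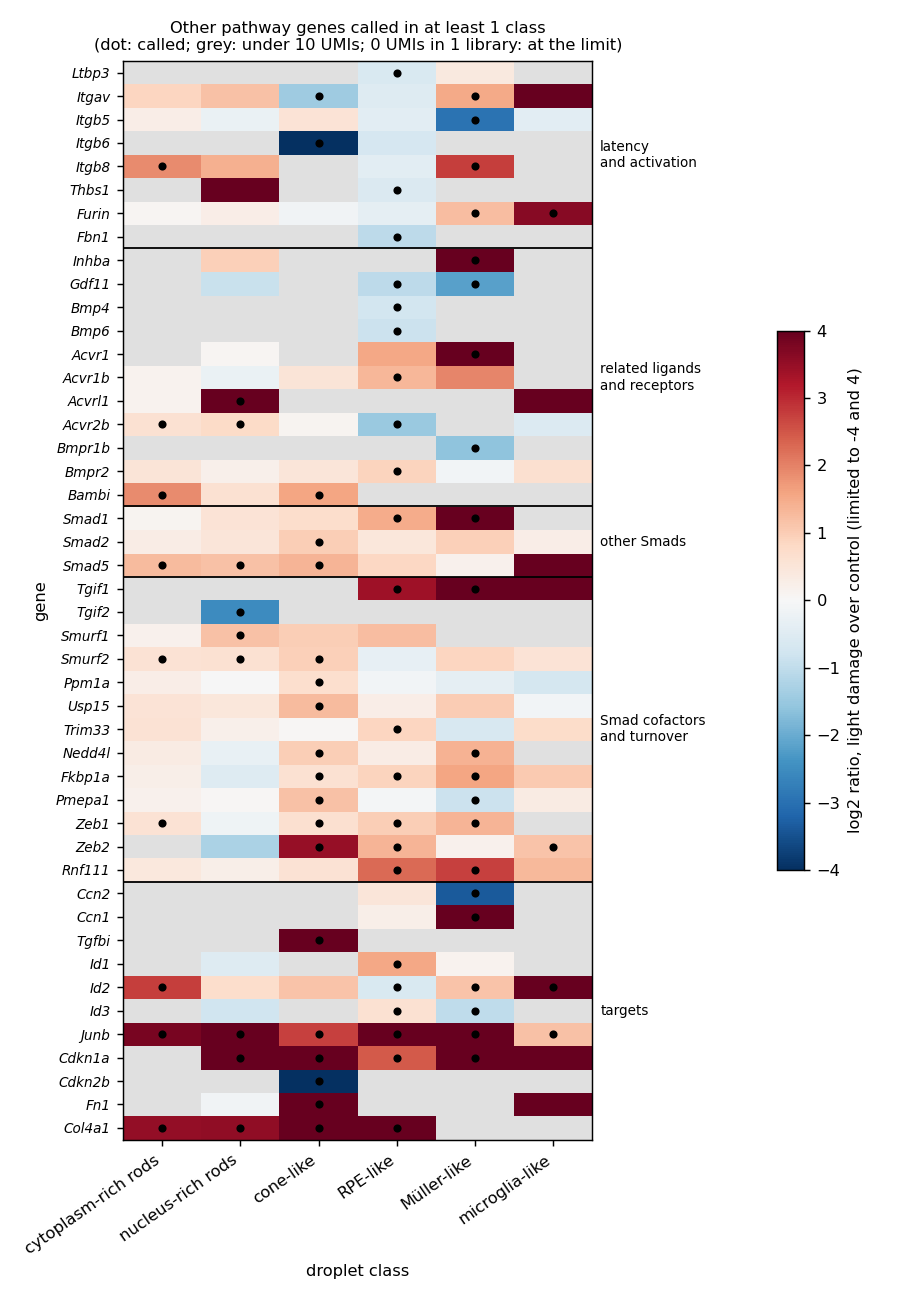
Log2 ratio of light damage over control for the 46 other pathway genes called in at least 1 of 6 droplet classes (columns), by list. The share of all genes called in at least 1 class was not computed. Red is higher after light damage and blue lower, limited to -4 and 4, black dots mark called genes, grey marks genes with under 10 UMIs, and a gene with 0 UMIs in 1 library is drawn at the limit. Junb is called higher in all 6 columns, and the called genes of latency and activation are red in muller-like glia, apart from Itgb5, and blue in RPE-like droplets.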

How the data were processed

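Single-cell RNA of 1 control and 1 light-damaged pool of retinae was measured with the 3′ 10x Genomics v3.1 chemistry. As deposited by the authors, the matrices give whole UMI counts for spliced, unspliced and ambiguous reads of each gene, neither normalized nor cleared of empty droplets. The submitters' processing notes name Cell Ranger 7.0.1, alevin 0.8.1 and Salmon 1.10.1. Their later steps (cell calling, doublet calling, decontamination and embedding) were not used here. Genes were named from GENCODE vM21 on GRCm38.

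Barcodes passed with 1464 (control) or 1614 (light damage) UMIs, the inflection points of the ranked totals, which exceeded a floor of 500, and with under 10% mitochondrial UMIs. The top 0.8% of Scrublet scores per 1000 droplets were left out (114 and 276), since the automatic threshold called 1 and 0 doublets. Counts scaled to 10000 per droplet, 2000 variable genes, 50 principal components and 15 neighbours gave 15 Leiden clusters (resolution 1, seed 0). A cluster was named with a marker score of at least 0.5, at least 3 markers in 10% of its droplets and 1 among its 10 leading genes. UMIs were summed per class and library (32726 to 10575725, which sets the precision). CPM have exact Poisson and log2 ratios exact conditional binomial 95% intervals. Sequencing depth beyond these counts and the spread between mice are not covered by them. The median gene was taken among genes that reached 50 UMIs in each group. Likeness is Pearson's r of log2(CPM + 10) over the 14 class and library groups of at least 20 droplets, for members with at least 100 and genes with at least 200 UMIs. The steps were tested on simulated data.

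All members were named, and of the other pathway genes the called ones, at most 6 a list and comparison by the interval end nearest 0, from which examples were taken after their values were seen. The members, lists and markers were chosen with earlier results of these data known. The alternatives lowered the minimum to 1000 UMIs or the mitochondrial limit to 5%. Others were no doublet removal, leaving out droplets with 50% free RNA, subtracting free RNA, all UMIs, centring on the median gene, no filter on low counts, a fold of 2, a resolution of 2 and a rod split at 25%. A further set, chosen after seeing the data, added unnamed droplets to muller-like glia, limited rod markers in microglia-like droplets, and kept the cluster shared by both libraries in RPE-like droplets and in nucleus-rich rods. Clustering used scanpy 1.11.5 with leidenalg 0.10.2, igraph 0.11.9, anndata 0.12.19 and scikit-learn 1.9.0. Intervals came from scipy 1.17.1 with numpy 2.4.6, tables from pandas 2.3.3 and plots from matplotlib 3.10.9, all under Python 3.11.15.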

Additional observations from a re-analysis of the deposited data

Results flagged for a closer look

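Tgfbr2 was called lower after light damage in RPE-like droplets (log2 ratio -1.77) and higher in microglia-like droplets (2.64), and Smad4 was called higher in cone-like (1.18) and lower in microglia-like droplets (-1.86). These are opposite directions under the same contrast in single libraries, and the differences between classes were not tested. Both microglial values rest on 12 control droplets, with 1 control UMI of Tgfbr2 and 8 of Smad4.

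Bipolar-like droplets, which were in none of the comparisons, held more Tgfb2 (293 and 863 CPM, log2 ratio 1.56, 0.97 to 2.20) and more Skil (43.5 and 136 CPM, log2 ratio 1.65, 0.13 to 3.62) after light damage, from 44 control and 18 light-damaged droplets. There 2 of 6 members tested were called, and 17.1% of all 5528 genes tested. The estimated free RNA share of these droplets was 35.1% in the control and 17.4% in the light-damaged library. Rod markers stood at 38002 and 14241 CPM and the horizontal cell list at 21.7 and 136 CPM (1 of its 4 markers in each library), and their part in the result was not tested.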

How the results depend on the processing

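Of 132 recomputed counts of called genes, 118 stayed within 1.5 times the reported count, and of 328 recomputed log2 ratios of members 313 moved by less than their interval. In nucleus-rich rods 4 members were called with a minimum of 1000 UMIs, 2 without doublet removal, 2 with all UMIs, 2 with rods split at 25%, 0 at a fold of 2 and 0 within the cluster shared by both libraries, against 1. In cytoplasm-rich rods 1 was called after centring and 1 at a fold of 2, against 2. In muller-like glia 1 was called with a mitochondrial limit of 5%, against 3, and there the log2 ratio of Tgfb2 turned to -0.055. In microglia-like droplets under 20000 CPM of rod markers 1 member and 1 pathway gene were called, against 3 and 4, and 7 pathway genes after centring. In RPE-like droplets 12 of the pathway genes were called at a fold of 2 and 12 within the shared cluster, against 22. The causes were not tested, apart from the fewer droplets that the restricted classes held by construction. The share of all genes called was not recomputed for these alternatives.

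Calls of single members also changed, counted here over the alternatives that kept the 1.5-fold threshold. Smad4 in microglia-like droplets lost its call after centring and Tgfbr2 there kept it in 5 of the 8 alternatives that gave a ratio. Under 20000 CPM of rod markers the control held 0 UMIs of both genes. That alternative gave them no ratio and is not counted, and neither gene was called in it. Tgfbr1 in microglia-like droplets was called lower after subtraction of free RNA (-0.97). Tgfb2 in muller-like glia kept its call in 6 of 9 alternatives, Skil in RPE-like droplets in 8 of 9 and Skil in nucleus-rich rods in 9 of 10. Tgfbr1 in cytoplasm-rich rods and Smad7 in muller-like glia were called in 9 of 9, and Tgfbr1 and Smad4 in cone-like droplets in 8 of 8.

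No paired analysis was possible because each condition had 1 library, so no replicate was left out either. Depth limits the thin classes: 3 UMIs correspond to 91.7 CPM in control microglia-like and 24.1 CPM in control muller-like droplets, against 0.387 CPM in control cytoplasm-rich rods.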
